A study of Mus musculus with 12 samples.

Results

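The 10 claudin genes Cldn1, Cldn2, Cldn3, Cldn4, Cldn5, Cldn6, Cldn7, Cldn12, Cldn14 and Cldn15 were followed through liver cell differentiation in mouse RNA-seq. They were taken by symbol from the 53715 genes of the count table, and all 10 had more than 10 counts in at least 1 library, so that all entered the tests. RNA came from 4 biological replicates each of 3 groups of C57BL/6JOlaHsd cells. Hepatoblasts were E14.5 liver cells enriched on magnetic beads for the surface marker Dlk1 and processed at once. Diff. hepatocytes were such hepatoblasts kept for 4 days on fibronectin in differentiation medium with serum, insulin, dexamethasone and Matrigel. Mature hepatocytes were isolated by collagenase perfusion from male mice of 8 to 12 weeks and lysed directly. The groups therefore differ in age, in culture and in the way of isolation together, and the sex of the embryos was not given in the sources used here. Levels are given in CPM, the counts scaled to a common library size with TMM, edgeR's factor for differences in RNA composition.

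Claudins are small membrane proteins that cross the membrane several times and polymerise into the strands of tight junctions, where they pair with claudins of the neighbouring cell. Which claudins a cell makes sets whether the space between cells is closed to ions or holds channels for them. In the liver, tight junctions between hepatocytes seal the bile canaliculus, the narrow apical lumen into which bile is secreted, from the blood side, and a similar seal is made by the epithelium of the bile ducts and by vessel endothelium with other sets of claudins.

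The labels of the groups were checked on marker genes. The fetal hepatoblast markers Dlk1 and Afp were called lower in both hepatocyte groups than in hepatoblasts, and Alb and Hnf4a were present in all 12 libraries. Afp still had a mean of 18609 CPM in Diff. hepatocytes, against 39337 CPM in hepatoblasts and 42.3 CPM in mature hepatocytes. Of the 5 hepatocyte markers, 5 were called higher than in hepatoblasts in mature hepatocytes and 2, Apoa1 and Cps1, in Diff. hepatocytes. Of all tested genes 20.1% and 14.9% were called higher. The means of Ttr were 1059 CPM in Diff. hepatocytes and 1955 CPM in hepatoblasts, and the libraries did not overlap. This fall (-0.88 on the log2 scale, adjusted p = 0.000537, edgeR) was not called only because it was under 1 in size. RNA of other cell types was present as well. The 10 endothelial markers summed to 53.5 to 161 CPM in hepatoblasts, to 127 to 231 CPM in mature hepatocytes and to 9.28 to 17.5 CPM in Diff. hepatocytes. The 5 bile duct markers summed to 12.9 to 15.1 CPM, 15.4 to 40.7 CPM and 69.95 to 213 CPM in the same order. The 6 mesenchymal markers summed to 642 to 1262 CPM in hepatoblasts, to 15.9 to 28.2 CPM in mature hepatocytes and to 1027 to 2535 CPM in Diff. hepatocytes. Hepatoblasts replicate 1 held 1930 CPM of 6 erythroid markers, against 232 to 389 CPM in the other 3 hepatoblast libraries, and 274 CPM of 6 macrophage markers, against 60.1 to 74.3 CPM. In RNA of whole samples, fewer cells of a type and less RNA per cell cannot be told apart.

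The region before the start of 4 of the genes is shown because these genes peaked in different groups: Cldn2 and Cldn3 were highest in mature hepatocytes, whereas Cldn4 and Cldn7 were highest in Diff. hepatocytes. Each sequence is the 250 bases before a RefSeq start site of the gene, the one nearest the gene's annotated start. It is written 5′ to 3′ along the gene, and capitals mark matches on either strand to the motifs searched.
Cldn2 (GRCm38.p6 chrX:139800558-139800807, plus strand): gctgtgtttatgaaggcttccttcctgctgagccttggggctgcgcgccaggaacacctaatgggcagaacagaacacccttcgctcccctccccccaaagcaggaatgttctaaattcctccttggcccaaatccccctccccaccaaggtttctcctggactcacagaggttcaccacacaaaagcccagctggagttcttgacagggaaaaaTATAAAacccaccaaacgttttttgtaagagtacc
Cldn3 (GRCm38.p6 chr5:134985964-134986213, plus strand): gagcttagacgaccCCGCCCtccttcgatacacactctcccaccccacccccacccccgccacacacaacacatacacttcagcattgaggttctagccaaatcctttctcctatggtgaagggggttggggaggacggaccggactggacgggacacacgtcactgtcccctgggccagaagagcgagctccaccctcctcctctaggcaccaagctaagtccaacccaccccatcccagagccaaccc
Cldn4 (GRCm38.p6 chr5:134946935-134947184, minus strand): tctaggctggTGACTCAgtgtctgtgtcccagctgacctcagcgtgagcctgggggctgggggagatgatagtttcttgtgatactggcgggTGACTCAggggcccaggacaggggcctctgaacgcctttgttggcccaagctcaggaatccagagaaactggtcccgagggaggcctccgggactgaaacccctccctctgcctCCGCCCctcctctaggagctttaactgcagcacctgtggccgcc
Cldn7 (GRCm38.p6 chr11:69964529-69964778, plus strand): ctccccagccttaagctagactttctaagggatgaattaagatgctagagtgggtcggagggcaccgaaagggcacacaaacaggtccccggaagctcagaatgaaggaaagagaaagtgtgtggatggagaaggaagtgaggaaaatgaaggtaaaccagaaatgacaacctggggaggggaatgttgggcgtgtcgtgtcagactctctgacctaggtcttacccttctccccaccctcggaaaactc
The motifs were chosen after the expression values had been seen. The TATA box was searched as TATAAA and the GC box as GGGCGG. AP-1 was searched as TGANTCA and the Grainyhead-like motif as AACNGGTT. HNF4 was searched as CAAAGTCCA. Cldn2 held a TATA box that begins 35 bases before the start, and 12.4% of 32851 windows of this length in the RefSeq table held this motif. The Cldn4 window held TGACTCA at 240 and again at 158 bases before the start, and a GC box on the other strand at 44 bases. An AP-1 match was found in 6.75% of all windows and a repeated one in 0.338%. Cldn3 held a GC box, present in 32.7% of windows, and the Cldn7 window shown held none of the motifs. Of the 6 claudins not shown, Cldn1, Cldn5, Cldn6 and Cldn15 held a GC box, and the windows taken for Cldn12 and Cldn14 held no match. The RefSeq table held 2 windows for Cldn7 and 3 each for Cldn12 and Cldn14, and their other windows were not looked at singly. In addition, Cldn15 had an AP-1 match, found there once, Cldn5 a Grainyhead-like match (1.79% of windows), and none of these 10 windows an HNF4 match (0.384%). These matches describe letters in a window and not bound sites.

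The make-up of the claudin RNA differed between the groups, as the plot of levels by library shows. Levels of different genes were set beside each other only per length, as CPM per kilobase of exon, and each gene's share of the sum over the 10 genes was taken. In hepatoblasts Cldn1 made up 57.5% ± 4.16 (SD, n = 4) of this sum and Cldn12 28.7% ± 3.23, and the other 8 were far lower. Cldn13 is not among the 10 genes and so not in this sum. It had a mean of 11.4 ± 15.0 CPM per kilobase in hepatoblasts, against 13.7 for Cldn12. Hepatoblasts replicate 1 held 33.9 CPM per kilobase of Cldn13, above Cldn1 with 19.3, and the other hepatoblast libraries 3.13 to 5.43. Cldn5, Cldn7 and Cldn14 had mean shares of 3.11%, 3.01% and 2.70%, but 1.64%, 2.86% and 2.83% without replicate 1, so that the first place of Cldn5 among these 3 was lost, as it was with the longest transcript (2.69%, 3.78% and 3.40%). In Diff. hepatocytes the sum was spread over 4 genes with shares close to each other, namely 21.9% ± 5.16 for Cldn3, 21.8% ± 5.69 for Cldn1, 19.9% ± 8.41 for Cldn4 and 18.4% ± 3.27 for Cldn12, and the order of these 4 is within their spread. In mature hepatocytes Cldn3 alone made up 49.8% ± 2.41, followed by Cldn2 with 21.1% ± 1.66, Cldn12 with 13.7% ± 2.60 and Cldn1 with 8.36% ± 4.67. The summed level per length was 47.9 ± 9.78, 109 ± 13.1 and 183 ± 24.5 CPM per kilobase in hepatoblasts, Diff. hepatocytes and mature hepatocytes, and the 3 groups did not overlap. On library totals without the TMM factors, a setting added here and for single partners after the data had been seen, the sums were 62.2 ± 8.72, 115 ± 15.6 and 133 ± 15.2, in the same order, but Diff. hepatocytes (103 to 137) and mature hepatocytes (115 to 149) then overlapped. With the length of the longest transcript in place of all exons, the share of Cldn3 in mature hepatocytes was 46.4%.

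**Figure D1:**
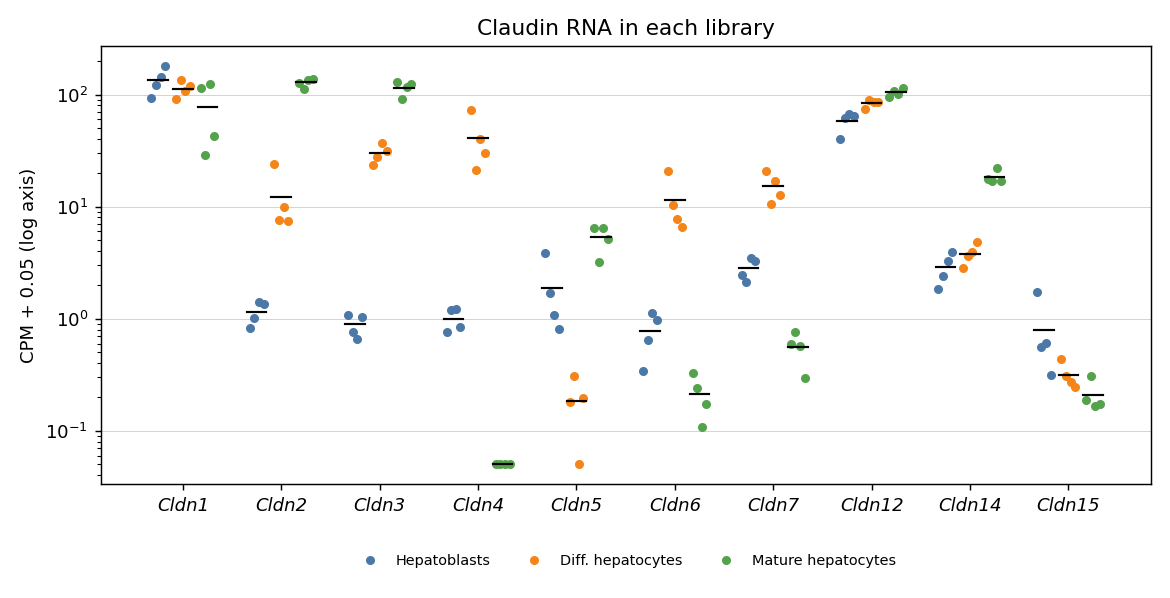
Level of the 10 claudins as CPM + 0.05 on a log axis, each point 1 library, coloured by group, with a bar at each group mean. Cldn1 and Cldn12 are high in all groups, Cldn2, Cldn3 and Cldn14 are highest in mature hepatocytes, and Cldn4, Cldn6 and Cldn7 are highest in Diff. hepatocytes.

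**Figure D2:**
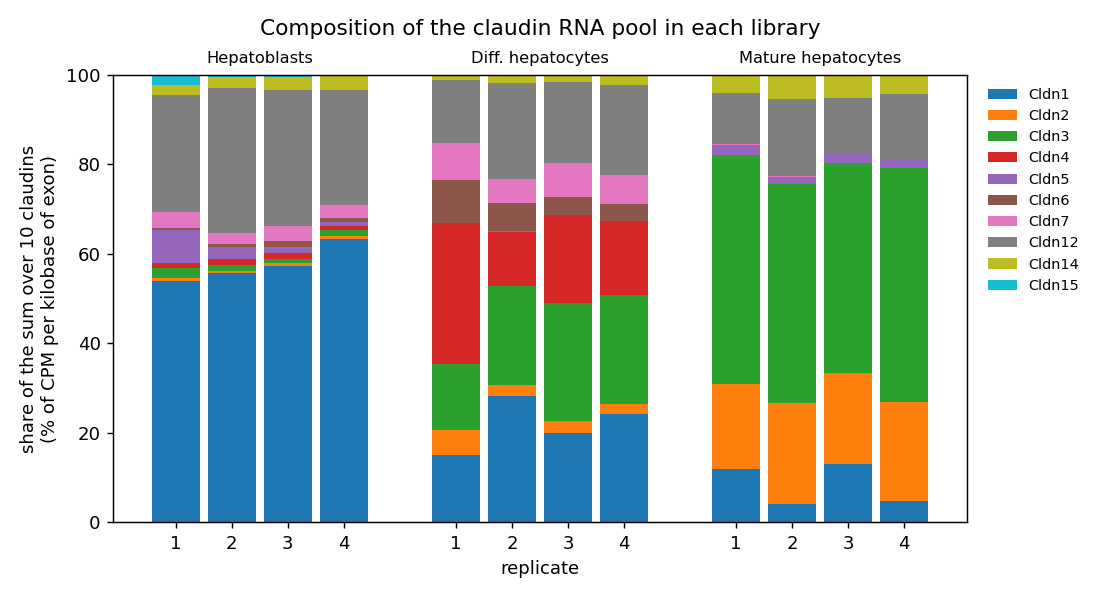
Share of each claudin, in percent, of the summed CPM per kilobase of exon over the 10 genes, as stacked bars for each library. Cldn1 takes the largest part of each hepatoblast bar and Cldn3 of each mature bar, with mean shares of 57.5% and 49.8%.

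Genes were compared with edgeR's quasi-likelihood test fitted over all 12 libraries, and a gene counts as called where its log2 fold change was above 1 in size and its p, adjusted by Benjamini-Hochberg over the 17779 genes tested, was under 0.01. Between Diff. hepatocytes and hepatoblasts 6 of the 10 claudins were called, 5 higher and 1 lower, beside 28.9% of all tested genes (14.9% higher and 14% lower). The median log2 fold change of the claudins was 1.48, against -0.0127 over all genes. Between mature hepatocytes and hepatoblasts 7 were called, 3 higher and 4 lower, beside 44.8% of all genes (20.1% higher and 24.7% lower), with a median of 0.0259 against -0.15. Between Diff. hepatocytes and mature hepatocytes 7 were called, 3 higher and 4 lower, beside 35.8% (20.2% higher and 15.6% lower), with a median of 0.11 against 0.0919. The 3 comparisons share their libraries and are not independent of each other. With library totals in place of TMM, the median over all genes moved to -0.335, -1 and 0.619 and the higher genes made up 35.4%, 20.2% and 75.6% of the calls in place of 51.5%, 44.9% and 56.4%. The claudins called were then 5 higher and 1 lower, 3 higher and 5 lower, and 3 higher and 4 lower.

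**Figure D3:**
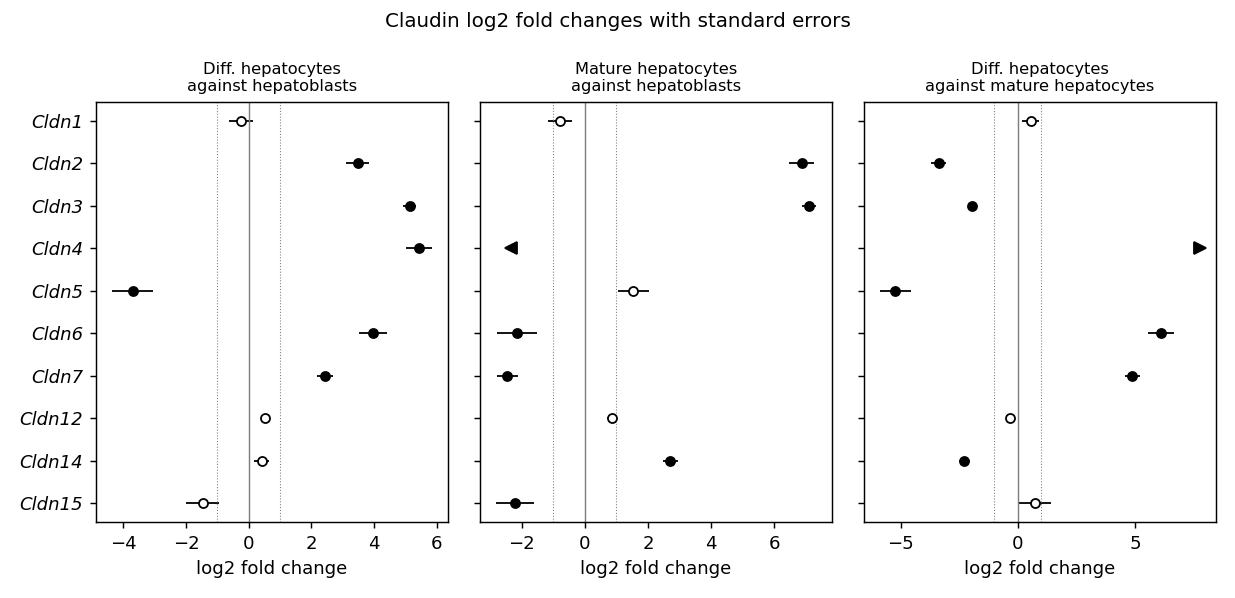
Log2 fold change with its standard error for the 10 claudins in the 3 comparisons, filled where called and open where not, with dotted lines at -1 and 1. Triangles mark Cldn4 against mature hepatocytes, where all 4 libraries had 0 counts and the value is a bound. With library totals in place of TMM, Cldn12 between Diff. hepatocytes and mature hepatocytes changes its sign.

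Cldn1, which forms the barrier of many epithelia and of the epidermis, and Cldn12, which lacks the motif by which most claudins bind scaffold proteins, were the claudins present at high level in all groups. Cldn1 had 93.6, 121, 144 and 180 CPM in hepatoblasts. Diff. hepatocytes had 91.96, 134, 108 and 118 CPM and mature hepatocytes 115, 28.8, 124 and 42.3 CPM. These ranges overlapped in every comparison, and the mature libraries fell apart, replicates 1 and 3 lying close to the other groups and replicates 2 and 4 below them. The log2 fold changes were -0.25 ± 0.376 (SE, adjusted p = 0.581, edgeR) for Diff. hepatocytes and -0.80 ± 0.38 (adjusted p = 0.0746) for mature hepatocytes against hepatoblasts. On library totals the second was -1.63 with an adjusted p of 0.00122 and was called. Mature replicates 1 and 3 were also the pair with more endothelial marker RNA (221 and 231 CPM, against 127 and 165 CPM). They also had more macrophage marker RNA (150 and 166 CPM, against 90.1 and 88.5 CPM). Among hepatoblasts, replicate 1 had the highest sums of both (161 and 274 CPM) and the least Cldn1. The part of these cells in the level of Cldn1 was not tested.

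In hepatoblasts Cldn12 had 39.7, 61.3, 67.3 and 64.0 CPM, in Diff. hepatocytes 74.8, 88.4, 85.1 and 86.2 CPM, and in mature hepatocytes 95.6, 106, 101 and 115 CPM. With TMM the 3 groups lay in this order without overlap, but no step reached a log2 fold change of 1. Against hepatoblasts the value was 0.85 ± 0.14 in mature hepatocytes (adjusted p = 9.98e-05, edgeR) and 0.53 ± 0.139 in Diff. hepatocytes (adjusted p = 0.00533). Between Diff. hepatocytes and mature hepatocytes the value was -0.32 ± 0.139 (adjusted p = 0.0558), and on library totals its sign turned, at 0.205. On that scale the differences from hepatoblasts did not pass the test either, with 0.0105 in mature hepatocytes (adjusted p = 0.937) and 0.216 in Diff. hepatocytes (adjusted p = 0.121). Hepatoblast libraries then lay between 57.2 and 84.2 CPM, the cultured ones between 80.8 and 93.2 CPM and the adult ones between 67.0 and 82.8 CPM, and each pair of groups overlapped.

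Cldn2, Cldn3 and Cldn14 were higher in mature hepatocytes than in either other group. Cldn2, a claudin that forms channels for small cations and water, made up 0.684% of the claudin sum in hepatoblasts, with 0.774, 0.955, 1.36 and 1.29 CPM. It had 23.9, 7.49, 9.95 and 7.44 CPM in Diff. hepatocytes and 128, 111, 134 and 139 CPM in mature hepatocytes, so that the 3 groups did not overlap and the cultured cells lay between the others. Diff. hepatocytes replicate 1 stood above the other cultured libraries. The log2 fold change against hepatoblasts was 3.48 ± 0.375 in Diff. hepatocytes (adjusted p = 3.82e-06, edgeR) and 6.86 ± 0.40 in mature hepatocytes (adjusted p = 4.31e-09). Diff. hepatocytes against mature hepatocytes gave -3.39 ± 0.324 on the log2 scale (adjusted p = 8.93e-07).

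Cldn3, a barrier-forming claudin of many epithelia, took the same order of groups. It had 1.03, 0.717, 0.615 and 0.994 CPM in hepatoblasts, 23.3, 27.4, 37.2 and 31.3 CPM in culture and 129, 91.1, 117 and 123 CPM in mature hepatocytes. Each group was well apart from the next, with replicates within 1.68-fold of each other. The log2 fold changes against hepatoblasts were 5.14 ± 0.206 (adjusted p = 6.1e-10, edgeR) and 7.09 ± 0.215 (adjusted p = 1.06e-11), and Diff. hepatocytes were lower than mature hepatocytes, at -1.95 ± 0.16 (adjusted p = 1.98e-07). An antisense gene, Wbscr25, covers 40 of the 1259 exon bases of Cldn3 on the opposite strand. The paper describes strand-specific libraries, but the strand setting of the counting was not given in the sources used here. Reads from these 40 bases therefore cannot be assigned to either gene.

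Cldn14, known from the cochlea and the kidney, differed from Cldn2 and Cldn3 in that no rise was called in culture. In hepatoblasts it had 1.77, 2.36, 3.21 and 3.91 CPM and in Diff. hepatocytes 2.81, 3.57, 3.86 and 4.78 CPM, which overlap. Mature hepatocytes were apart with 17.7, 16.9, 22.1 and 16.9 CPM. Diff. hepatocytes against hepatoblasts gave 0.42 ± 0.232 on the log2 scale (adjusted p = 0.139, edgeR). Mature hepatocytes exceeded hepatoblasts by 2.71 ± 0.235 (adjusted p = 2.1e-07). Diff. hepatocytes against mature hepatocytes gave -2.29 ± 0.232 (adjusted p = 1.55e-06).

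Cldn4, Cldn6 and Cldn7 were highest in Diff. hepatocytes. Cldn4, typical of tight epithelia such as the collecting duct and the bile duct, had 22, 38, 36 and 24 counts in hepatoblasts, or 0.709 to 1.17 CPM. The Diff. hepatocytes libraries held 72.8, 21.3, 40.1 and 30.2 CPM. In mature hepatocytes it had 0 counts in all 4 libraries. At this depth 0 counts allow up to 3 counts in a library, a mean of 0.190 CPM over the 4 libraries, and this limit covers counting error only. Diff. hepatocytes exceeded hepatoblasts by 5.42 ± 0.414 on the log2 scale (adjusted p = 1.43e-06, edgeR). Against this limit Cldn4 in Diff. hepatocytes was at least 216-fold higher than in mature hepatocytes. Mature hepatocytes had at least 5.01-fold lower Cldn4 than hepatoblasts. Both differences were called (adjusted p = 3.1e-07 and 0.000624, edgeR), and these p test for any difference and not for the bounds. Cldn4 lies 39279 bases from Cldn3 on chromosome 5, on the opposite strand, and the neighbours parted in the adult cell, where Cldn3 had its highest and Cldn4 its lowest level.

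Cldn6, a claudin of embryonic epithelia, was low in hepatoblasts (0.290, 0.597, 1.07 and 0.928 CPM) and reached 20.8, 10.4, 7.64 and 6.56 CPM in Diff. hepatocytes. Mature hepatocytes held 4, 3, 1 and 2 counts, or 0.0584 to 0.274 CPM, and no library of one group reached into another group. The rise in culture was 3.97 ± 0.446 on the log2 scale (adjusted p = 5.49e-06, edgeR). Summed over libraries, Diff. hepatocytes held 1026 counts and mature hepatocytes 10, a ratio per scaled library of 73.0 with a 95% Poisson interval of 39.5 to 153. Such an interval covers counting error only and leaves out the spread between libraries of a group. Mature hepatocytes were called lower than hepatoblasts at -2.14 ± 0.637 (adjusted p = 0.00821), but this call was lost without hepatoblasts replicate 2, 3 or 4, Diff. hepatocytes replicate 2, or any of the 4 mature replicates, with values from -1.87 to -2.51 and adjusted p from 0.0101 to 0.0291.

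Cldn7, found along the lateral membrane of many epithelia, followed the same order of groups. It had 2.42, 2.09, 3.40 and 3.25 CPM in hepatoblasts, 20.6, 10.4, 16.9 and 12.6 CPM in culture, and 0.549, 0.706, 0.525 and 0.248 CPM in mature hepatocytes. The groups did not overlap in any pair. Against hepatoblasts the log2 fold change was 2.44 ± 0.258 in Diff. hepatocytes (adjusted p = 3.14e-06, edgeR) and -2.45 ± 0.322 in mature hepatocytes (adjusted p = 1.28e-05). Diff. hepatocytes exceeded mature hepatocytes by 4.89 ± 0.321 (adjusted p = 2.61e-08).

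Some markers of the bile duct moved along with Cldn4, Cldn6 and Cldn7. Of the 5 bile duct markers, Epcam, Krt7 and Krt19 were called higher in Diff. hepatocytes than in both other groups, whereas Sox9 and Spp1 were not called there. Of all tested genes 14.9% were called higher than in hepatoblasts and 20.2% higher than in mature hepatocytes. Epcam, an adhesion protein, and Krt7 and Krt19, keratins of duct cells, had 9.13 to 16.5, 20.6 to 90.2 and 24.8 to 88.9 CPM in Diff. hepatocytes. In hepatoblasts they had 1.31 to 1.42, 1.28 to 2.03 and 1.49 to 2.18 CPM, and in mature hepatocytes 0.0621 to 0.48, 0.321 to 1.30 and 2.05 to 9.33 CPM. Sox9 had means of 4.76 CPM in Diff. hepatocytes, 4.73 CPM in hepatoblasts and 9.06 CPM in mature hepatocytes. For Spp1 these means were 8.38, 4.12 and 16.3 CPM. Both had lower means in culture than in mature hepatocytes, though the libraries overlapped and neither was called. The 5 mesothelial markers, which mark another epithelium of the liver, summed to 8.22 to 21.1 CPM in Diff. hepatocytes. They summed to 5.94 to 10.3 CPM in hepatoblasts and to 0.513 to 2.06 CPM in mature hepatocytes. Against hepatoblasts these 5 did not move together, as 2 were called higher and 1 lower in Diff. hepatocytes. Msln had means of 7.38 and 0.355 CPM in Diff. hepatocytes and hepatoblasts, and Upk3b was called lower (-1.36 ± 0.319 on the log2 scale, adjusted p = 0.00234, edgeR). The sum of the 6 mesenchymal markers took the same order of groups as Cldn4, Cldn6 and Cldn7, although Diff. hepatocytes and hepatoblasts overlapped in it. Of these 6, 2 were called higher in Diff. hepatocytes than in hepatoblasts and 6 higher than in mature hepatocytes. Pdgfrb went the other way against hepatoblasts, with means of 14.6 CPM in Diff. hepatocytes and 19.9 CPM in hepatoblasts, and was not called. The paper states that enriched cells from livers of the same embryonic day included a minority positive for the bile duct marker Sox9. It also describes cysts formed by bile duct cells in culture, without naming the culture protocol for them. The part of bile duct, mesothelial and mesenchymal cells in the levels of Cldn4, Cldn6 and Cldn7 was not tested.

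Cldn5, the main claudin of vessel endothelium, was lowest in Diff. hepatocytes. It had 119, 55, 32 and 23 counts in hepatoblasts, 3, 6, 0 and 3 counts in Diff. hepatocytes and 94, 49, 110 and 82 counts in mature hepatocytes. These are 0.762 to 3.84 CPM, at most 0.258 CPM and 3.14 to 6.45 CPM. Diff. hepatocytes did not overlap with either other group, whereas hepatoblasts replicate 1 lay within the range of mature hepatocytes. Over the summed counts Diff. hepatocytes were 13.6-fold below hepatoblasts (95% Poisson interval 7.61 to 26.6) and 39.3-fold below mature hepatocytes (22.2 to 76.7). These intervals leave out the spread between libraries. Both differences were called, with log2 fold changes of -3.71 ± 0.662 (adjusted p = 0.000313, edgeR) and -5.24 ± 0.659 (adjusted p = 1.18e-05), and the first was -3.04 without hepatoblasts replicate 1 (adjusted p = 0.000321). Mature hepatocytes against hepatoblasts gave 1.53 ± 0.489 (adjusted p = 0.0124), or 0.62 on library totals, and was called without hepatoblasts replicate 1 (2.18, adjusted p = 0.000267) or without Diff. hepatocytes replicate 3 (1.53, adjusted p = 0.00797). Of the 10 endothelial markers 8 were called lower in Diff. hepatocytes than in hepatoblasts and 10 lower than in mature hepatocytes, beside 14% and 15.6% of all tested genes. Hepatoblasts replicate 1, with the most Cldn5 of its group, also had the highest endothelial sum. The part of endothelial RNA in the level of Cldn5 was not tested.

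Cldn15, a channel-forming claudin of the intestine, was near the limit of detection in all groups. It had 52, 17, 17 and 8 counts in hepatoblasts, 9, 6, 5 and 4 counts in Diff. hepatocytes and 2, 4, 2 and 2 counts in mature hepatocytes. Only hepatoblasts replicate 1 had more than 17 counts. Mature hepatocytes were called lower than hepatoblasts at -2.21 ± 0.609 (adjusted p = 0.00518, edgeR), a ratio of 4.75 in summed counts with a 95% Poisson interval of 2.47 to 10.2. The interval leaves out the spread between libraries. The call was lost without hepatoblasts replicate 1 (-1.46, adjusted p = 0.0111) and without mature replicate 1 (-2.17, adjusted p = 0.0149), 3 (-2.10, adjusted p = 0.0173) or 4 (-2.12, adjusted p = 0.0168). Diff. hepatocytes against hepatoblasts gave -1.46 ± 0.525 (adjusted p = 0.0281), -0.70 without hepatoblasts replicate 1 (adjusted p = 0.139) and -1.74 without hepatoblasts replicate 4 (adjusted p = 0.00771, called).

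An exact two-sided permutation test of single genes, over the 70 ways to assign 8 libraries to 2 groups, cannot go below p = 0.0286. It gave this smallest p to each claudin and comparison without overlap, which follows from the lack of overlap itself and adds nothing to it. None of the 10 transcripts shared a sequence of 75 bases, the read length, with another gene.

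Libraries within a group also differed in the claudins, as the map of deviations shows. In culture, replicate 1 had the most Cldn2, Cldn4, Cldn6, Cldn7 and Cldn15 and the least Cldn1, Cldn3, Cldn12 and Cldn14 of the 4 libraries. Cldn4 made up 31.6% of the claudin sum there. The same library had 213 CPM of bile duct markers, against 69.95 to 93.5 CPM in the others, and 2535 CPM of 6 mesenchymal markers, against 1027 to 1683 CPM. Without this library, the 5 genes called higher in Diff. hepatocytes than in hepatoblasts were still called. Among hepatoblasts, replicate 1 had the most Cldn3, Cldn5 and Cldn15 and the least Cldn1, Cldn2, Cldn4, Cldn6, Cldn12 and Cldn14, along with the highest erythroid, macrophage and endothelial sums. The part of these other cells in the spread was not tested.

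**Figure D4:**
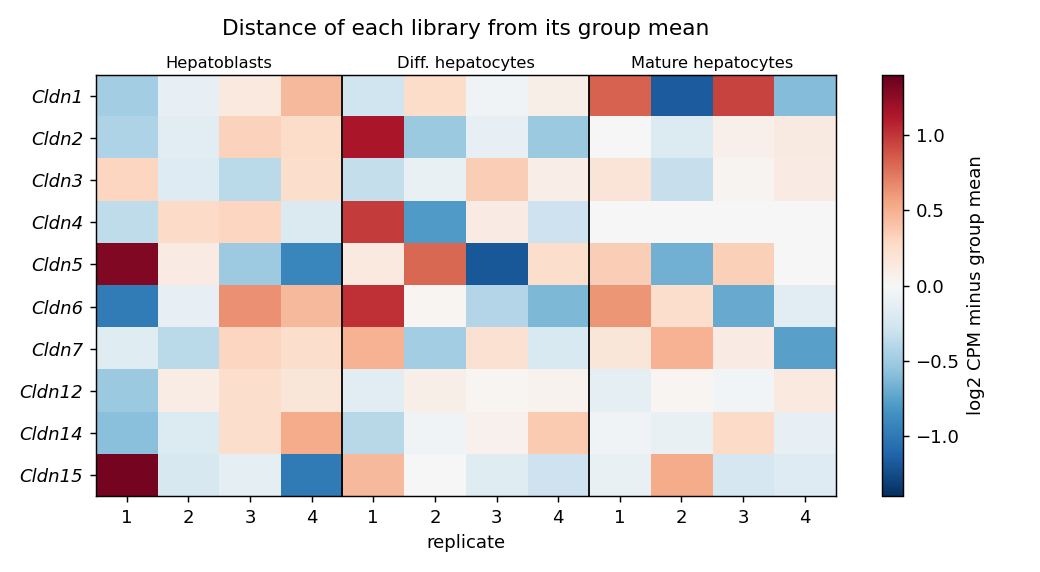
Deviation of each library from its group mean, in log2 CPM, for the 10 claudins (rows) in the 12 libraries (columns). Diff. hepatocytes replicate 1 is high for Cldn2, Cldn4, Cldn6 and Cldn7 and low for Cldn1 and Cldn14, and mature replicates 2 and 4 are low for Cldn1.

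Claudins work with other tight junction proteins, and 23 of these were taken as a list of 10 strand and membrane proteins and 13 scaffold and polarity proteins. Of the 23, 6 were called higher and 0 lower in Diff. hepatocytes than in hepatoblasts (median log2 fold change 0.628), 6 higher and 3 lower in mature hepatocytes than in hepatoblasts (median -0.0596), and 7 higher and 6 lower in culture than in mature hepatocytes (median 0.651). The partners called made up 26.1%, 39.1% and 56.5% of the list, beside 28.9%, 44.8% and 35.8% of all tested genes, so that the first 2 shares were not above that of all genes. On library totals these counts were 5 higher and 1 lower, 4 higher and 8 lower, and 12 higher and 4 lower. No partner called with TMM turned its sign there. Among the MARVEL-domain proteins of the strands, Marveld3 changed most. It held 3 or 4 counts in each hepatoblast library, 28.1, 27.9, 27.5 and 23.1 CPM in Diff. hepatocytes and 1.23, 1.28, 1.11 and 1.49 CPM in mature hepatocytes. The ratio of summed counts between Diff. hepatocytes and hepatoblasts was 258 (95% Poisson interval 151 to 486, for counting error only), and the gene was highest in culture like Cldn4 and Cldn7. Ocln, the first strand protein described and a relative of Marveld3, was called only between Diff. hepatocytes and mature hepatocytes (1.04 ± 0.247 on the log2 scale, adjusted p = 0.00231, edgeR).

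Lsr, Ildr1 and Ildr2 are the angulins, which mark the corners where 3 cells meet. Ildr2 had 0.265 to 0.645 CPM in the hepatoblast libraries, 3.20 to 3.59 CPM in culture and 31.6 to 70.9 CPM in the adult cells, the same order as Cldn2 and Cldn3. Its log2 fold changes were 2.93 ± 0.30 (adjusted p = 2.31e-06, edgeR) in Diff. hepatocytes and 6.71 ± 0.299 (adjusted p = 3.6e-10) in mature hepatocytes against hepatoblasts. Lsr rose by 1.67 ± 0.161 (adjusted p = 6.37e-07) in mature hepatocytes, and by 0.83 on library totals, where it was not called. Ildr1 was low throughout, with 17 counts summed over hepatoblasts, 67 over Diff. hepatocytes and 0 over mature hepatocytes. Of the junctional adhesion molecules, Jam3 was lower in mature hepatocytes than in hepatoblasts (-3.28 ± 0.433, adjusted p = 1.32e-05) and Jam2 higher (1.58 ± 0.214, adjusted p = 1.65e-05, but 0.74 and not called on library totals).

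Among the scaffolds, Tjp1 and Tjp3 encode ZO proteins, which tie the tails of claudins to actin. Tjp3 followed the order of Cldn2 and Cldn3, with 1.25 to 1.92 CPM in hepatoblast libraries, 5.77 to 8.73 CPM in culture and 18.4 to 57.8 CPM in adult cells, and it was called in all 3 comparisons. Tjp1 was most abundant in Diff. hepatocytes with a mean of 155 CPM against 88.0 CPM in hepatoblasts and 68.5 CPM in mature hepatocytes, and it was called against mature hepatocytes (1.17 ± 0.135 on the log2 scale, adjusted p = 4.94e-06, edgeR). Patj and Crb3, of the Crumbs complex that marks the apical side, were called higher in Diff. hepatocytes than in hepatoblasts, at 1.89 ± 0.137 (adjusted p = 9.98e-08) and 1.24 ± 0.173 (adjusted p = 3.9e-05), Crb3 at 0.94 and not called on library totals. The cingulins parted, as Cgnl1 rose by 2.02 ± 0.161 in mature hepatocytes (adjusted p = 9.08e-08) and Cgn fell by 1.03 ± 0.183 (adjusted p = 0.000194). Cxadr, F11r, Tjp1, Cgn, Cgnl1, Lsr and Pard3 each had a group mean over 100 CPM.

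**Figure D5:**
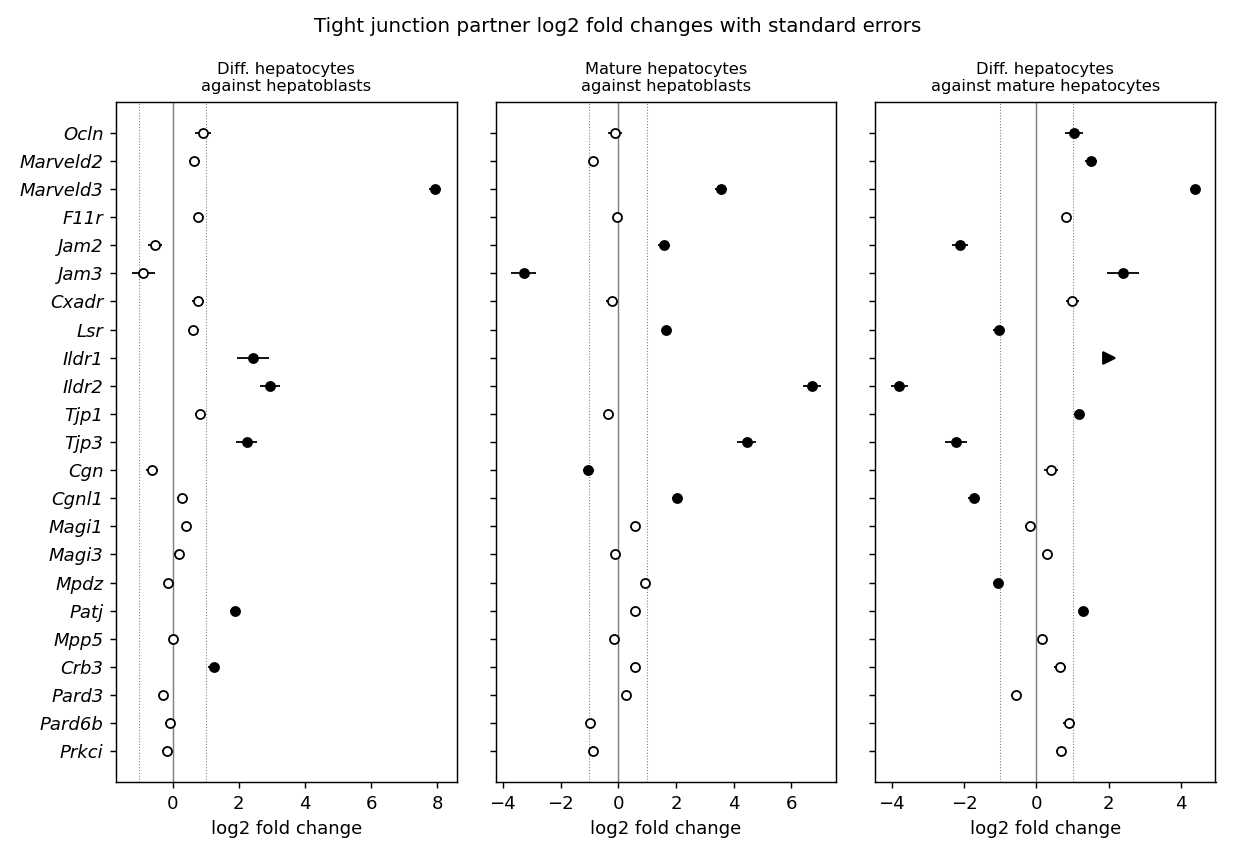
Log2 fold change with its standard error for the 23 tight junction partners in the 3 comparisons, filled where called, with dotted lines at -1 and 1. The triangle marks a bound for Ildr1, which had 0 counts in mature hepatocytes, and no point is drawn for it against hepatoblasts.

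The table listed 35 genes with a claudin symbol, 25 beside the 10 above. Of these 25, 12 had 0 counts in all libraries and 21 never passed 10 counts in a library. Cldn13 and Cldn23 had a group mean of at least 1 CPM. Cldn23 had 4, 7, 4 and 13 counts in hepatoblasts, 180, 263, 216 and 174 in Diff. hepatocytes and 1, 3, 0 and 2 in mature hepatocytes, so that it too was highest in culture. It was higher in Diff. hepatocytes than in hepatoblasts by 5.35 ± 0.399 on the log2 scale (adjusted p = 1.26e-07, edgeR). Cldn13, a claudin of mouse blood-forming organs, had 1122, 194, 103 and 101 counts in hepatoblasts, 0 in all Diff. hepatocytes libraries and 1, 0, 0 and 0 in mature hepatocytes. Hepatoblasts replicate 1 was highest both for Cldn13 and for the erythroid markers, and Cldn13 was at least 90.1-fold lower in Diff. hepatocytes than in hepatoblasts, or at least 30.8-fold without that library.

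The genes whose log2 CPM followed each claudin most closely over the 12 libraries are given as a description, among 13153 genes with a mean of at least 1 CPM. Because the libraries fall into 3 groups, a high Pearson r says mainly that the group means are spaced in similar proportion. Cldn5 was closest to Oit3, Stab2 and Tek (r from 0.987 to 0.990), of which Stab2 and Tek are genes of liver endothelium and were in the endothelial marker list. Cldn4 was closest to Ccl20 (0.996), Tubb2b (0.996) and Chrnb1 (0.995), Cldn7 to Ddr1 (0.995), Gys1 (0.992) and Tmem268 (0.992), and Cldn6 to Ahnak2 (0.984), 3930402G23Rik (0.983) and Thbs4 (0.983). Cldn2 was closest to Clu (0.994), Osbpl9 (0.992) and Ggt6 (0.991), Cldn3 to Tdrp (0.996), Cisd1 (0.996) and Bckdha (0.995), and Cldn14 to H2-T23, Slc25a23 and Masp2 (0.990 each). Cldn12 was closest to Slc35e1 (0.987), Uqcrc2 (0.977) and Wasl (0.974). Lower values were found for Cldn15, with Btk (0.958), Endod1 (0.950) and Metap2 (0.949), and for Cldn1, with Gldc (0.918), Dtx4 (0.906) and Spon2 (0.900). Ranked by Spearman's rho, Ccl20 and Fam13c came first for Cldn4 (0.998 each), and Tek and Oit3 stayed among the first 3 for Cldn5. For every other claudin the first 3 genes by rho were all different from those by r, as with Tor1a and Cblc for Cldn12.

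The genes lie on chromosomes 5, 11, 16, 17 and X of GRCm38 in GENCODE release M21. Chromosome 5 holds Cldn12 (5489537 to 5514958, minus strand), Cldn4 (134945119 to 134946934, minus strand), Cldn3 (134986214 to 134987472, plus strand) and Cldn15 (136966616 to 136975858, plus strand). Chromosome 16 holds Cldn5 (18776847 to 18778262, plus strand), Cldn1 (26356642 to 26371841, minus strand) and Cldn14 (93919031 to 94008837, minus strand). Cldn2 is on chromosome X (139800828 to 139811386, plus strand), Cldn6 on chromosome 17 (23679249 to 23682446, plus strand) and Cldn7 on chromosome 11 (69964779 to 69967885, plus strand).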

How the data were processed

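Poly(A) RNA of 12 libraries was read as 75-bp single reads. The authors checked reads with FastQC 0.11.2, used STAR 2.5.2b to map them to GRCm38 and to count reads on Ensembl genes. The processing notes also name Picard 2.10.2 and DESeq2 1.22.2. The table as deposited holds whole raw counts, with 19581551 to 25216977 counts on genes per library. The paper describes strand-specific libraries, but the strand setting of the counting was not given in the sources used here.

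The tests used edgeR 4.0.16 in R 4.3.3, and DESeq2 1.42.0 as an alternative. A gene was kept if any library held more than 10 counts of it (17779 of 53715). Libraries were scaled by TMM and fitted with the group as the only term over all libraries. The standard error is the absolute log2 fold change divided by the square root of the F statistic. Log2 CPM for permutation tests and correlations used a prior count of 2. Symbols, positions and exon lengths came from GENCODE M21 (53620 identifiers found) and promoter windows from RefSeq on GRCm38.p6. Groups followed the labels, which name no batch.

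The members and gene lists were chosen with earlier results of these data known. Of the lists fixed at the start, 1 bile duct marker and 1 tight junction partner are not reported here and were left out of sums and counts. Named are the 10 claudins, other claudins with a group mean of at least 1 CPM, tight junction partners with the largest called changes or a group mean over 100 CPM, with further members of that list described by role after their values were seen, and the 3 genes most correlated with each claudin. The alternatives were DESeq2 with the fold change threshold after or in the test, glmTreat, DESeq2 size factors, library totals, other filters, a block for the replicate number, fits of 8 libraries, calls at an adjusted p under 0.05 alone, and each library left out. The fit was tested on simulated data. Intervals cover counting error only.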

Additional observations from a re-analysis of the deposited data

Results flagged for a closer look

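Of 129 sets of 4 libraries examined, 13 held a highest or lowest library with a gap to its neighbour beyond Dixon's 95% limit. Chance gives about 1 in 20 for independent values with a normal spread. These sets share libraries and some hold only a few counts, so that rate is no measure for them. Among the 10 claudins, Cldn2 in Diff. hepatocytes replicate 1 was at 23.9 CPM, with the next library at 9.95 CPM. Cldn14 in mature hepatocytes replicate 3 was at 22.1 CPM (next 17.7 CPM). Cldn15 in mature hepatocytes replicate 2 was at 0.257 CPM (next 0.137 CPM), a gap of 2 counts.

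Hepatoblasts replicate 1 had the highest Cldn13 of its group with 36.2 CPM (next 5.79 CPM), the highest erythroid marker sum with 1930 CPM (next 389 CPM) and the highest macrophage marker sum with 274 CPM (next 74.3 CPM). It was the lowest of its group for the scaffold gene Tjp1 with 63.6 CPM (next 93.8 CPM) and for the polarity kinase gene Prkci with 31.9 CPM (next 46.8 CPM). Cldn13 in mature hepatocytes replicate 1 was at 0.0686 CPM, which is 1 count, with the others at 0.

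Among the other tight junction partners in Diff. hepatocytes, Marveld3 was lowest in replicate 4 with 23.1 CPM (next 27.5 CPM) and Patj was lowest in replicate 2 with 46.1 CPM (next 50.2 CPM). Among the bile duct marker sums, Diff. hepatocytes replicate 1 was highest with 213 CPM (next 93.5 CPM) and hepatoblasts replicate 3 was highest with 15.1 CPM (next 13.2 CPM).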

How the results depend on the processing

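Over 656 alternative values of the claudins' log2 fold changes, 626 kept direction and side of the threshold, 18 lost the call, 11 gained one and 1 reversed, Cldn12 between Diff. hepatocytes and mature hepatocytes on library totals (0.205, from -0.32). Cldn15 was not fitted under filterByExpr or in 1 of the 8-library fits. With each library left out, 6 to 7, 5 to 8 and 7 claudins were called in the 3 comparisons (Diff. against hepatoblasts, mature against hepatoblasts and Diff. against mature), against 6, 7 and 7. In Diff. hepatocytes against hepatoblasts, Cldn15 was called without hepatoblasts replicate 4 (-1.74, adjusted p = 0.00771). In mature hepatocytes against hepatoblasts, Cldn6 and Cldn15 were not called with the threshold in the test (adjusted p = 0.18 and 0.233 with DESeq2, 0.0458 and 0.0318 with edgeR's glmTreat), and Cldn5 was called with DESeq2's Wald test (1.52, adjusted p = 0.00451) and without the filter (1.49, adjusted p = 0.00678). The cause was not tested.

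For all genes, DESeq2 with the threshold in the test called 2504, 4923 and 3528 genes, against 5145, 7971 and 6362, and glmTreat called 2966 and 4221 in the first and last comparison. Of the tight junction partners these called 6 and 8 in the last, against 13. Calling on an adjusted p under 0.05 alone gave 10615, 12870 and 11580 genes and 15, 17 and 19 partners.

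Groups share replicate numbers, and no source used here ties libraries of the same number. Deviations of same-numbered libraries correlated at 0.324, -0.0589, 0.246 and 0.184 between Diff. hepatocytes and hepatoblasts, where replicates 1, 3 and 4 correlated best with their own number, and at -0.0813 to 0.0923 in the other comparisons. Not every pair passed 0.1, so the numbers were not taken as pairs, and a shared source of some libraries was not tested. With the replicate block 6, 7 and 7 claudins and 5220, 7988 and 6359 genes were called. Cldn6 was then not called (-2.22, adjusted p = 0.0151) and Cldn5 was (1.72, adjusted p = 0.00376), both in mature hepatocytes against hepatoblasts.

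The longest transcript in place of all exons moved the share of Cldn7 to 3.78% in hepatoblasts and 9.23% in Diff. hepatocytes, and of Cldn14 to 3.40%, 2.18% and 6.46% in hepatoblasts, Diff. hepatocytes and mature hepatocytes.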
